A study of Capra hircus with 6 samples.

Results

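The retinoic acid receptors and their corepressors were examined in dermal papilla cells (DPCs) of the secondary hair follicle, the follicle that makes cashmere. The group was fixed by 8 gene names, which are the receptor genes RARA, RARB, and RARG, the partner receptor genes RXRA, RXRB, and RXRG, and the corepressor genes NCOR1 and NRIP1. Names were matched to the identifier or symbol of each row, and 7 of the 8 names gave 8 of the 15944 rows in the count table. RXRA gave 2 rows, one under its own name and one under LOC108634606, a locus whose listed symbol is also RXRA. RXRG was not analysed here.

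The cells were wild type primary cultures from shoulder skin, taken in the growth phase (anagen), of Albas cashmere goats (Capra hircus) aged 3 years, used at passages 4 to 7. Control cells had medium alone, and ATRA-treated cells had all-trans retinoic acid at 100 µM for 24 h. Each group held 3 libraries, all listed as batch 1, and the study's methods place the cells of 3 animals in the sequencing experiment. The control libraries held between 36887160 and 38012771 counted reads, and the ATRA-treated libraries between 35532339 and 36870939. The second ATRA-treated library stood somewhat apart, with a chi-square per degree of freedom of 19.4 and 18.1 against the other two, which differed from each other by 5.20. Levels below are CPM, read counts relative to the library total after TMM scaling, and a value after ± is the SD over the 3 libraries of a group.

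ATRA acts through receptors that sit on DNA as pairs, with a retinoic acid receptor (RAR) bound to a retinoid X receptor (RXR). Without ligand, the pair holds corepressors such as NCOR1, which bring histone deacetylases and keep target genes quiet. Ligand binding releases NCOR1 and recruits coactivators, while NRIP1 binds the liganded receptors and dampens them. RARB is itself a classical target of the other receptors, and in skin this signaling shapes the hair follicle and its cycle.

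All 8 rows differed between the groups. RARB, RARG, RXRB, NCOR1, and NRIP1 rose, and RARA and both RXRA rows fell, by edgeR's quasi-likelihood test with Benjamini-Hochberg adjustment, although RARA and RXRA were higher when libraries were scaled by size only. RARB went from 1 or 2 reads per library to between 82 and 108. RARG, RXRB, NCOR1, and NRIP1 rose by 1.68-fold to 1.76-fold, while RARA, RXRA, and LOC108634606 were lower by 1.25-fold, 1.19-fold, and 1.47-fold under TMM scaling. Change was the rule in these cells, since 79.7% of the 12588 genes tested passed an adjusted p of 0.05 (40.9% higher, 38.7% lower), so the count of 8 is to be read against that share. Past the study's thresholds for a differentially expressed gene (DEG), which are |log₂ fold change (FC)| above 1 and an unadjusted p under 0.05, the group held 1 gene higher, RARB, and 0 lower, where 13.7% and 17.3% of all tested genes passed, or 31.0% in either direction. In each of the 8 rows the libraries of the groups did not overlap, as in 80.1% of all tested genes. Without the second ATRA-treated library, 5 rows were again higher and 3 lower, with 1 and 0 past the DEG thresholds. The median log₂FC of the 8 rows was 0.75, beside 0.04 for all tested genes. RARB entered the test through the ATRA-treated libraries alone, because its control counts are below the expression filter, and without it the median was 0.74.

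**Figure D1:**
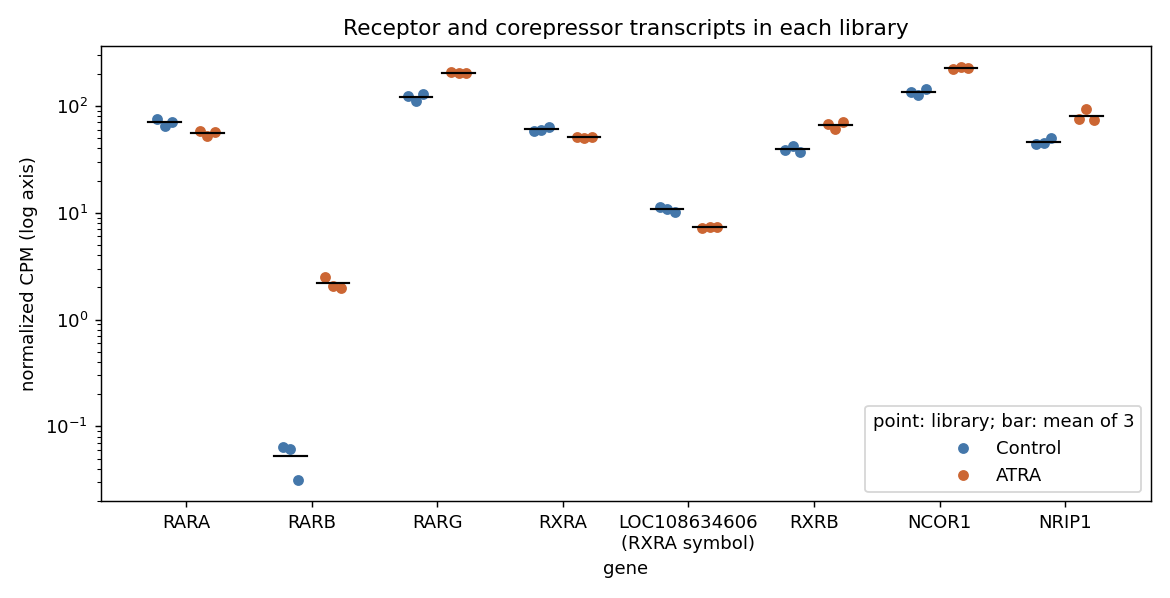
Level of each receptor and corepressor row in every library, as TMM-scaled CPM on a log axis, with points for libraries and bars for the mean of 3. RARB lies between 0.0311 and 0.0644 in the control group and between 1.98 and 2.50 with ATRA, and in no row do the groups overlap.

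The scaling of the libraries bears on these directions. The mean TMM factor was 0.847 in the control group and 1.18 with ATRA. When the counts were divided by library size only, the median log₂FC of all tested genes moved to 0.52, and RARA and RXRA turned to higher, with a log₂FC of 0.15 and 0.23. The rises of RARB, RARG, RXRB, NCOR1, and NRIP1 kept their direction under every scaling tried. The reads are from whole cultures, so fewer cells of a type and less RNA per cell cannot be told apart.

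Marker genes were read beside these results. Of 14 markers of dermal papilla and mesenchyme, 10 were tested and all 10 were lower with ATRA, and their summed level went from between 84467 and 86143 to between 4382 and 4708 CPM. VIM and PDGFRA, which mark mesenchymal cells, were abundant in the control group and fell with ATRA (log₂FC -3.59 and -2.74). ACTA2, the α-smooth muscle actin gene, fell from 6582 to 8.37 CPM, and the papilla genes VCAN, BMP4, RSPO3, and LEF1 fell from means of 1641, 406, 275, and 16.1 CPM to 32.4, 15.9, 73.7, and 11.1. Of the papilla markers not tested, ALPL, CORIN, and PROM1 (the CD133 gene) had at most 1 count in any library. The study identified its cells by staining for the proteins α-smooth muscle actin and CD133, with adipose stem cells as a negative control. Protein staining and the RNA counts given here are unlike measures. SOX2, also not tested, went the other way, with 5, 0, and 2 counts in the control libraries and 10, 16, and 9 with ATRA. The 5 keratinocyte markers summed to at most 0.741 CPM in any library. The 5 endothelial markers summed to between 0.903 and 1.24 in the control group and to between 6.19 and 9.16 with ATRA. Most of the level with ATRA was PECAM1 (mean 6.10 CPM), at 0 counts in the control group and 206 to 340 with ATRA. CDH5 was at 0 counts in all but 1 library, and KDR went from 5, 6, and 10 counts to 2, 1, and 0 with ATRA. TEK was higher (log₂FC 0.87, edgeR adjusted p = 0.0122), and VWF did not pass (log₂FC 0.06, edgeR adjusted p = 0.909). Of the leukocyte and melanocyte markers, CD68 was higher with ATRA (log₂FC 1.41) and PMEL lower (log₂FC -0.90). The 2 leukocyte genes analysed, CD68 and CD3E, summed to between 2.60 and 5.70 in the control group and to between 10.6 and 11.8 with ATRA, and PMEL, the melanocyte gene analysed, went from between 3.80 and 4.26 to between 1.97 and 2.34. The part of these shifts in the receptor values was not tested.

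RARB, the receptor gene that retinoic acid induces in many cell types, had 2, 2, and 1 counts in the control libraries. With ATRA it had 108, 91, and 82 counts. The lowest ATRA-treated library thus stood far above the highest control library. The level was 0.0525 ± 0.0185 CPM without ATRA and 2.18 ± 0.278 with it. Summed over the groups, 5 control reads stood against 281 with ATRA, and the ratio of the levels was 41.7 with an exact 95% counting interval from 17.7 to 129. The fitted log₂FC was 5.29 (standard error 0.405, edgeR adjusted p = 8.38e-10), above 99.3% of all tested genes. RARB was 1 of 689 genes, among the 12588 tested, that entered the test through the ATRA-treated libraries alone. A gene that enters so is bound to come out higher, so this rank and p-value are no separate support for the rise. The size rests on the few control reads, and on the log2(CPM + 1) scale the log₂FC of the group means was 1.60. TOP2B, which adjoins RARB in RefSeq's goat annotation, had a log₂FC of -0.12 (edgeR adjusted p = 0.0502).

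RARG, a receptor gene long tied to skin, carried far more reads. It had 3820, 3622, and 4151 counts in the control libraries and 8968, 8977, and 8378 with ATRA. Its level went from 121 ± 8.74 to 204 ± 2.65 CPM, with the groups well apart and the ATRA-treated libraries close to each other. The log₂FC was 0.75 (standard error 0.0599, edgeR adjusted p = 1.51e-09), so RARG rose without reaching the fold threshold of a DEG. ITGB7, an integrin gene next to RARG in the annotation, also rose (log₂FC 1.04, standard error 0.0902). Whether reads past the end of either gene entered the other's count was not tested.

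RARA, a receptor gene expressed in most tissues, moved the other way under TMM scaling but not with library size only (log₂FC 0.15). Its 3 control libraries had 75.1, 64.6, and 71.0 CPM. Those with ATRA had 58.4, 52.6, and 57.1. The groups came close but did not overlap. The log₂FC was -0.33 with a 95% interval from -0.47 to -0.18 (edgeR adjusted p = 0.00034), which left RARA at percentile 34.3 of all tested genes. Its raw counts were nearly level, from 2091 to 2331 in the control group and from 2319 to 2523 with ATRA, so the direction rests on the scaling. LOC108638284, a long non-coding RNA locus that overlaps RARA in the annotation, was not analysed here.

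Ratios inside a library do not depend on scaling and were compared for 5 pairs of members or sums. RARG reads per RARA read were 1.64, 1.73, and 1.82 in the control libraries and 3.55, 3.87, and 3.54 with ATRA. The ratio was thus 2.11-fold higher with ATRA, with no overlap. RARB per RARA read was 41.3-fold higher, with an offset of 0.5 reads added to each count. For both ratios the exact permutation test gave p = 0.1 (two-sided, adjusted p = 0.125 over 5 ratios), and 0.1 is the smallest p that 3 libraries against 3 allow.

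The make-up of the receptor reads changed accordingly. RARG held 63.3% ± 1.22 of all reads on the 3 RAR genes in the control group and 77.9% ± 0.853 with ATRA. RARA went from 36.6% ± 1.21 to 21.3% ± 0.827. RARB remained a small part, at 0.0277% ± 0.0106 without ATRA and 0.829% ± 0.0906 with it. These are shares of reads and are not corrected for transcript length, so they compare a gene with itself across the groups and not with the other genes. The 3 genes together had 192 ± 13.1 CPM in the control group and 263 ± 5.18 with ATRA.

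Among the partner receptors, RXRB and RXRA parted in the same manner. RXRB had 1192, 1351, and 1197 counts in the control libraries and 2897, 2706, and 2905 with ATRA. Its level rose from 39.1 ± 2.34 to 66.2 ± 4.48 CPM (n = 3 each, log₂FC 0.76, standard error 0.0717, edgeR adjusted p = 1.78e-08). SLC39A7, a zinc transporter gene next to RXRB, also rose, with a log₂FC of 0.55 (standard error 0.0589).

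RXRA, a partner in many nuclear receptor pairs, had 58.4, 59.3, and 63.2 CPM in the control libraries. It had 50.9, 49.8, and 51.2 with ATRA. The groups did not overlap, and the log₂FC was -0.25 with a 95% interval from -0.38 to -0.12 (edgeR adjusted p = 0.00138), against 0.23 with library size only. LOC108634606, the other RXRA row, had 349, 351, and 328 counts in the control libraries and 311, 324, and 306 with ATRA. Its log₂FC was -0.56 (standard error 0.104, edgeR adjusted p = 8.16e-05), the lowest of the group, and with library size only it was -0.08 (edgeR adjusted p = 0.468). RefSeq places RXRA on a chromosome and LOC108634606 on an unplaced sequence, and reads could be divided between them, so both values are uncertain. LOC106502688, a long non-coding RNA locus overlapping RXRA, was not analysed here. With the 2 rows summed, a choice made after the values were seen, the log₂FC of RXRA under TMM was -0.29 (edgeR adjusted p = 0.000219).

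RXRB reads per RXRA read were 0.657, 0.705, and 0.590 in the control libraries and 1.32, 1.23, and 1.37 with ATRA. The ratio thus lay below 1 in each control library and above 1 in each ATRA-treated library, with no correction for transcript length, and it was 2.01-fold higher (exact permutation test, two-sided, p = 0.1, adjusted p = 0.125, n = 3 each). With the RXRA rows summed, the difference was 1.05 on the log2 scale in place of 1.01. Reads on the RAR genes per read on RXRA and RXRB were 1.75 to 2.05 in the control group and 2.15 to 2.32 with ATRA, a 1.17-fold higher ratio with no overlap (exact permutation test, two-sided, p = 0.1, adjusted p = 0.125, n = 3 each).

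**Figure D2:**
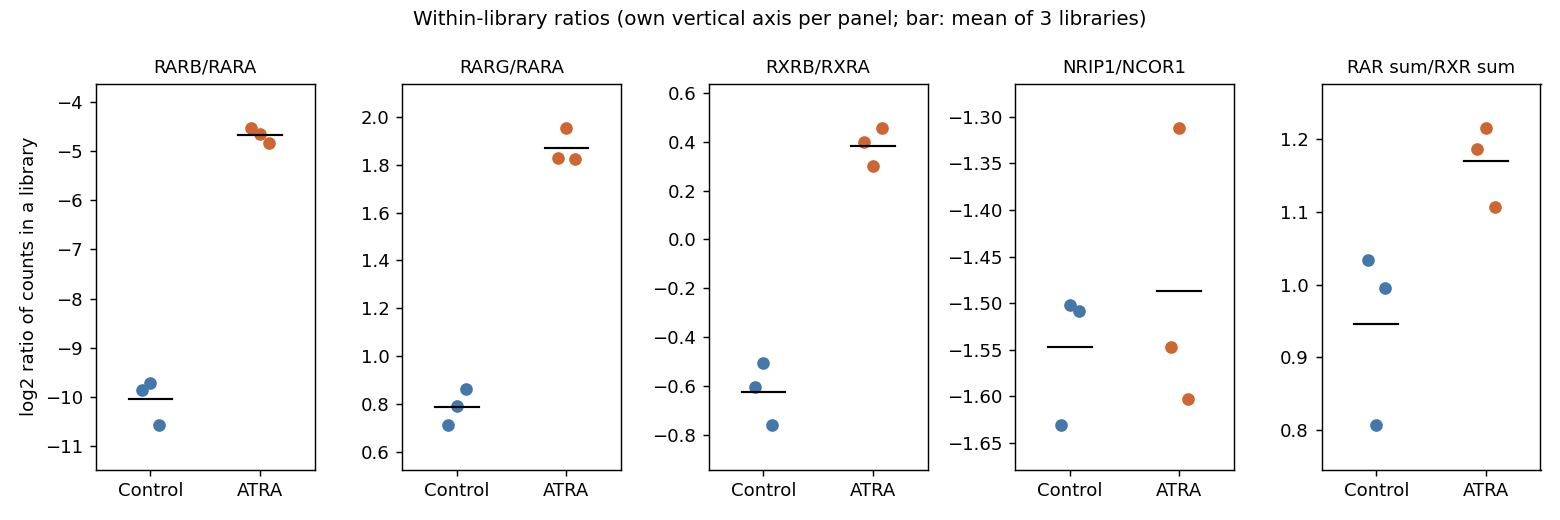
Log2 ratio of the reads on 2 members, or on the RAR and RXR sums, inside each library, with points for libraries, bars for the mean of 3, and a separate vertical axis for each ratio. The control and ATRA-treated libraries lie apart for 4 ratios and overlap for NRIP1/NCOR1, whose ATRA mean is lifted by 1 library at -1.31.

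NCOR1, the scaffold that binds unliganded receptors, had 4188, 4122, and 4579 counts in the control libraries. With ATRA it had 9553, 10274, and 9293. The groups were well apart, and the level rose from 135 ± 7.56 to 226 ± 6.12 CPM (n = 3 each, log₂FC 0.74, standard error 0.0575, edgeR adjusted p = 9.68e-10). PIGL, whose annotated end overlaps that of NCOR1, rose more (log₂FC 1.35, standard error 0.0910), on 588 to 693 counts in the control libraries and 2075 to 2497 with ATRA. Without knowledge of the strand setting, reads in the overlap cannot be told apart.

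NRIP1, which binds receptors that carry ligand, had 43.6, 45.0, and 50.1 CPM in the control libraries and 75.6, 93.8, and 73.9 with ATRA. The second ATRA-treated library was highest, and the other two lay together below it. The log₂FC was 0.81 (standard error 0.0861, edgeR adjusted p = 1.13e-07), and without that library it was 0.69. LOC108636217, which overlaps NRIP1 in the annotation, had at most 37 counts in any library, few beside the 1352 to 4137 of NRIP1. NRIP1 per NCOR1 read was 0.342 ± 0.0170 in the control group and 0.358 ± 0.0392 with ATRA, with overlapping groups (exact permutation test, two-sided, p = 0.8). The sign of that difference turned without the second ATRA-treated library, from 0.0598 to -0.0278 on the log2 scale.

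The scalings moved the whole group together. Under RLE and upper-quartile scaling, every member kept its direction and its adjusted p under 0.05. With library size only, 7 of the 8 rows were higher, 0 were lower, and 5 passed the DEG thresholds in place of 1. RARG, RXRB, NCOR1, and NRIP1 joined RARB past those thresholds, at a log₂FC of 1.23, 1.23, 1.22, and 1.29. At that setting 7921 of the 12588 genes tested were higher and 2861 lower, so these counts are to be read against that shift. The share of all tested genes past the DEG thresholds was not counted for it.

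**Figure D3:**
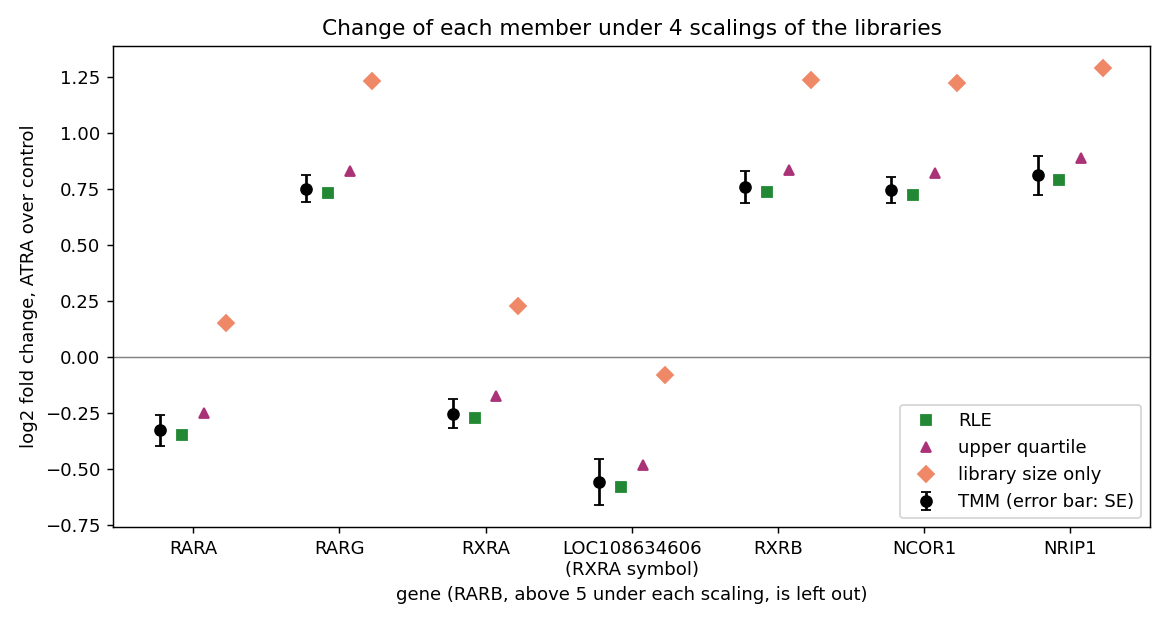
Log₂ fold change of 7 rows with ATRA under 4 scalings of the libraries, where the black points with error bars are TMM with the standard error of the fit. RARA and RXRA lie below 0 under TMM, RLE, and upper quartile and at 0.15 and 0.23 with library size only, while RARG, RXRB, NCOR1, and NRIP1 lie above 0 throughout.

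Other genes of the pathway were counted beside the shares of all tested genes, which were 40.9% higher, 38.7% lower, and, past the DEG thresholds, 13.7% higher. Of 12 corepressor complex genes, 5 were higher, 3 lower, and 4 did not pass an adjusted p of 0.05, with a median log₂FC of 0.01 beside 0.04 for all tested genes. HDAC3, the deacetylase that NCOR1 binds, fell slightly (log₂FC -0.20, edgeR adjusted p = 0.00367), and TBL1X, TBL1XR1, and GPS2, core subunits of the same complex, had a log₂FC of -0.09, 0.10, and -0.12 that did not pass. SIN3B, a scaffold of another deacetylase complex, was the highest at 0.98 (standard error 0.0678), and HDAC1 the lowest at -0.92 (standard error 0.0578). NCOR1 thus had a larger log₂FC than these 4 subunits of its complex, a comparison of values that was not itself tested. With library size only, 11 of the 12 genes were higher and 1 lower, where 7921 of the 12588 genes tested were higher and 2861 lower.

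Of 10 coactivator genes, 5 rose, 3 fell, and 2 did not pass, with a median log₂FC of 0.13. NCOA3, a member of the steroid receptor coactivator family, rose most, from 75.4 ± 3.88 to 180 ± 15.4 CPM (n = 3 each, log₂FC 1.26, standard error 0.0674). It was higher in the second ATRA-treated library than in the others, with 8658 counts against 7159 and 7431. Its relatives NCOA1 and NCOA2 had a log₂FC of 0.26 (edgeR adjusted p = 0.00341) and 0.07 (edgeR adjusted p = 0.541). The acetyltransferase gene EP300 rose by 0.56 on the log2 scale and its paralog CREBBP by 0.20. The methyltransferase gene PRMT1 fell by 0.56, the lowest of the list, followed by the acetyltransferase gene KAT2B at -0.52. With library size only, however, 8 genes of the list were higher and 0 lower, beside 7921 higher and 2861 lower among all 12588 tested.

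RXR also pairs with other nuclear receptors. Of 11 such partner genes, 9 were tested, 7 were higher, and 2 were lower, with a median log₂FC of 0.96, and 4 of the 9 passed the DEG thresholds upward. VDR, the vitamin D receptor gene, led them, from 369, 320, and 343 counts to 5113, 5375, and 4765 with ATRA (log₂FC 3.45, standard error 0.0771, edgeR adjusted p = 7.76e-18). PPARA, NR1H2, and NR4A1 rose by 1.29, 1.14, and 1.09 on the log2 scale. The thyroid hormone receptor genes THRA and THRB fell, with a log₂FC of -0.57 and -0.78. With library size only, 1 gene of this list was lower in place of 2.

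Carriers bring the ligand to the receptors, and target genes answer to them. CRABP2, which carries retinoic acid to the nucleus, rose slightly from 357 ± 8.30 to 417 ± 31.1 CPM (n = 3 each, log₂FC 0.22, edgeR adjusted p = 0.00285). Among 4 carrier genes, 3 were tested, 2 were higher and 1 did not pass, with a median log₂FC of 0.22. FABP5 had a log₂FC of -0.02 (edgeR adjusted p = 0.892), and CRABP1 had at most 8 counts in any library. Of 10 target genes, which share 2 genes with the carriers, 9 were tested, 7 were higher, 1 lower, and 1 did not pass. TGM2, RARRES1, and STRA6 entered the test through the ATRA-treated libraries alone, as RARB did, and without them 5 of 6 were higher and 1 lower, with a median log₂FC of 1.44 in place of 2.21. DHRS3, a retinaldehyde reductase gene, was the highest at 7.02 (standard error 0.0969), and RARRES2 the lowest at -1.17 (standard error 0.233). CYP26B1, which encodes a retinoic acid hydroxylase and is listed under LOC102187233, rose from 87.5 ± 4.46 to 3842 ± 176 CPM. RARB, with a log₂FC of 5.29, thus lay between CYP26B1 at 5.46 and TGM2 at 4.44, on far fewer reads than CYP26B1.

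**Figure D4:**
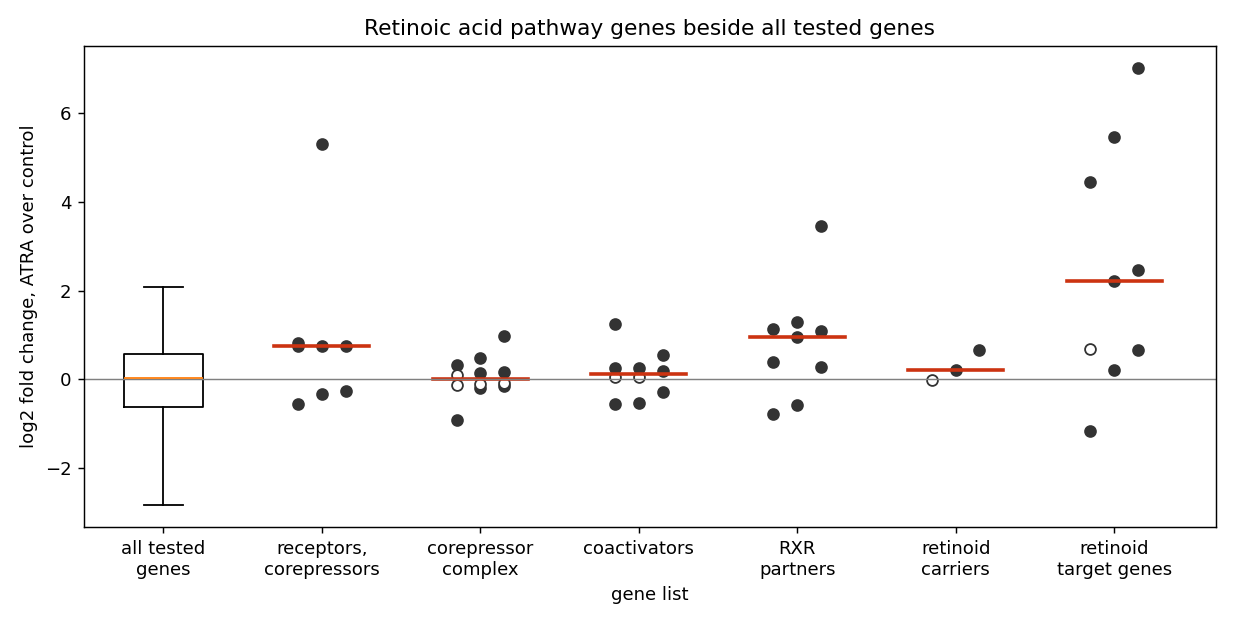
Log₂ fold change with ATRA of the receptor and corepressor rows and of 5 lists of pathway genes, with a filled point for an adjusted p under 0.05, an open point otherwise, and a red line at the median. The box shows all 12588 tested genes (median 0.04, quartiles -0.61 and 0.57, whiskers at percentiles 5 and 95), and the target genes, 3 of which were tested through the ATRA-treated libraries alone, range from -1.17 to 7.02.

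Similar profiles were sought over the 6 libraries for the members with the highest and the lowest log₂FC, by the root-mean-square difference of centred log2 CPM. Genes listed under a LOC number were left out of this search. The nearest to RARB were MAN1C1 (difference 0.212), IL1RN (0.215), and C27H8orf4 (0.258), with a log₂FC of 5.16, 5.03, and 5.34. The nearest to LOC108634606 were ANO10, GALM, and SNX3, with differences of 0.0254, 0.0309, and 0.0314. Profiles over 2 groups of 3 libraries mostly record the size of the group difference.

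In the deposited GO annotation, 6 of the 8 rows carried steroid hormone receptor activity, the term of nuclear receptors. Of the 29 tested genes with that term, those 6 included, 22 rose and 5 fell, and without the 2 genes tested through the ATRA-treated libraries alone (RARB and NR2E1) 20 of 27 rose and 5 fell, with a median log₂FC of 0.64, beside 40.9% higher and 38.7% lower among all tested genes. Retinoic acid receptor signaling pathway was carried by RARA, RARB, RARG, and RXRB and by 4 other tested genes. Of these 8 genes, RARB included, 4 were higher and 4 lower. Transcription corepressor activity was carried by 2 of the rows, and of its 134 tested genes 56 were higher and 48 lower, with a median log₂FC of 0.05. Cellular response to retinoic acid was carried by 4 of the rows, and of its 24 tested genes 16 were higher and 4 lower. Genes tested through the ATRA-treated libraries alone were not set apart for these last 2 terms. All 4 terms were chosen after the values were seen.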

How the data were processed

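Poly(A) RNA of 6 libraries was sequenced. The deposited values are raw counts of reads per gene, which the authors made without normalization after cleaning the reads with fastp and TrimGalore. The submitters' processing notes list HISAT2, featureCounts, and DESeq2. The genome build, annotation, and strand setting are not given in the sources used here. All 15944 identifiers matched symbols of RefSeq's goat assembly ARS1.2, which was used for names and neighbours only.

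Genes passing edgeR's expression filter (12588) were compared by edgeR's quasi-likelihood F-test (TMM, robust fit, two-sided, prior count 0.125) over all libraries without covariates, with Benjamini-Hochberg adjustment over all tested genes. The standard error of a log₂FC is its size divided by √F. Counting intervals cover counting error only. The script was tested on simulated data in which few genes changed, as many up as down. That test does not cover the scaling of data where most genes differ, as here. Replicates within a group differed by more than sampling noise (chi-square per degree of freedom 5.20 to 19.4). Nothing ties same-numbered libraries to an animal. The edgeR p-values set the group difference against the spread between these libraries, estimated partly from other genes. Members and lists were chosen with earlier results of these data known. Pathway genes named include the highest and lowest of each list, except that 2 genes counted in the lists are not reported here by name, and neighbours were chosen after their values were seen. Alternatives were RLE, upper-quartile, and library-size scaling, TMM without the 100 most abundant genes, other filters, DESeq2, R's t.test function, a replicate block, and each library left out. The ratio of RXRG to RXRA was not computed. Software was R 4.3.3, edgeR 4.0.16, DESeq2 1.42.0, and matplotlib 3.10.9.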

Additional observations from a re-analysis of the deposited data

How the results depend on the processing

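With library size only, the log₂FC of RARA and RXRA reversed to 0.15 and 0.23 and that of LOC108634606 lost its call (-0.08). The same setting gave 0 members lower, 5 members past the DEG thresholds, 11 corepressor complex genes higher and 1 lower, 8 coactivator genes higher and 0 lower, 1 RXR partner gene lower, 7921 of all tested genes higher, and 2861 lower. Upper-quartile scaling gave 1 corepressor complex gene lower. R's t.test function gave 3 coactivator genes higher and 1 carrier gene higher. Every other alternative kept each member's direction and its adjusted p under 0.05, among them DESeq2 and the replicate block.

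Leaving out each library in turn, the log₂FC of RARB ranged from 5.03 to 5.45, that of RARA from -0.39 to -0.28, and that of NRIP1 from 0.69 to 0.87. Over the same omissions, the log2 difference in NRIP1 per NCOR1 read ranged from -0.0278 to 0.117, with the reversal without ATRA replicate 2. From group means of CPM plus 1, the log₂FC was 1.60 for RARB and -0.50 for LOC108634606. The replicate block left 5 members higher and 3 lower. Deviations of same-numbered libraries from their group means had correlations across genes of 0.156, 0.00653, and -0.13. Those of unlike-numbered libraries ranged from -0.21 to 0.20. With 3 libraries per group these values cannot show whether libraries share an animal, and the numbers were not taken as pairs. The design has 3 libraries per group, and the few control reads limit the size given for RARB.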
